A study of Mus musculus with 5 samples.

Results

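The data are RNA counts for 10 genes of Wnt signalling in the embryonic mouse heart ventricle: the ligands Wnt2, Wnt5a and Wnt11, the receptors Fzd1, Fzd2, Fzd4 and Fzd7, and the nuclear factors and feedback genes Lef1, Tcf7 and Axin2. They were listed by gene symbol and are 10 of the 18307 genes of the RefSeq gene table. Pregnant mice of the outbred CD-1 strain had received a daily injection of caffeine (20 mg/kg) or of saline vehicle between embryonic day (E) 6.5 and E9.5. Ventricles were dissected at E10.5. Those of embryos sharing dams were pooled, and each pool was taken as 1 sample, which gave 2 vehicle and 3 caffeine libraries of total RNA. The labels name no engineered allele, and single embryos or dams cannot be told apart within a pool.

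Wnt proteins are secreted, lipid-modified ligands that bind frizzled receptors on the cell surface. In the canonical branch, binding together with an LRP co-receptor stops the destruction of beta-catenin, which then enters the nucleus and drives transcription with the DNA-binding factors of the TCF/LEF family. Other Wnts, with Wnt5a and Wnt11 as the standard examples, act mainly without beta-catenin, on cell polarity and movement. In the early heart, canonical signalling keeps progenitors dividing, Wnt5a and Wnt11 are known for their part in forming the outflow tract, and Wnt2 marks progenitors at the venous pole.

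Library totals in the gene table ran from 21713381 to 25048134 estimated counts. The markers of heart muscle were abundant: 8 cardiomyocyte genes summed to 37632 and 35009 CPM (counts scaled to the size of the library, with TMM, a trimmed mean of ratios, between libraries) in vehicle and to between 30568 and 31075 CPM in caffeine. The 8 genes listed for endocardium and endothelium summed to between 1328 and 1586 CPM over all libraries, and the 8 epicardial genes to between 335 and 482 CPM. Foregut and hepatic markers summed to 7.83 and 117 CPM in vehicle replicates 1 and 2 and to between 7.26 and 38.5 CPM in caffeine, with Alb at 0 in 3 of the libraries. In pooled tissue, fewer cells of a type and less RNA per cell cannot be told apart.

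The start regions of Lef1 are shown first, because its transcripts begin at different sites and their shares are compared further on. Those of Axin2, a known direct target of TCF/LEF factors, and Wnt11 stand beside them. Each is 300 bases, 250 before and 50 after a RefSeq start site on GRCm38.p6, written 5′ to 3′ on the gene's plus strand. Capitals mark the letters CTTTGA or their reverse complement TCAAAG, a form of the core that TCF/LEF factors are known to bind. Other forms of that core were not searched. The upstream Lef1 region, chr3:131110047-131110346, starts the transcripts NM_010703 and NM_001276402. The next one, chr3:131112541-131112840, starts NM_001276403. The internal Lef1 region, chr3:131156044-131156343, starts none of the transcripts in the RefSeq transcript table. The Axin2 region, chr11:108920099-108920398, starts NM_015732, and the upstream Wnt11 region, chr7:98834862-98835161, lies before the start that the gene table gives.
Lef1 upstream: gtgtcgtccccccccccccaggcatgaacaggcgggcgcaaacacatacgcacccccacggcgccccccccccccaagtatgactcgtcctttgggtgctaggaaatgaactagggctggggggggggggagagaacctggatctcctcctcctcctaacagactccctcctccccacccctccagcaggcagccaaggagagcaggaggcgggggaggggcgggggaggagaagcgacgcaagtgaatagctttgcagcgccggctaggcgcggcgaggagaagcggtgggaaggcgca
Lef1 next: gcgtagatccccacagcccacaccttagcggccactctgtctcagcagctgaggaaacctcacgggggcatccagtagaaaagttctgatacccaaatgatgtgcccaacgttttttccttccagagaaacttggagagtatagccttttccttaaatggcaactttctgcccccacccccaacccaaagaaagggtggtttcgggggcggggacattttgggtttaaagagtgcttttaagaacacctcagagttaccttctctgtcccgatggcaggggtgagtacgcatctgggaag
Lef1 internal: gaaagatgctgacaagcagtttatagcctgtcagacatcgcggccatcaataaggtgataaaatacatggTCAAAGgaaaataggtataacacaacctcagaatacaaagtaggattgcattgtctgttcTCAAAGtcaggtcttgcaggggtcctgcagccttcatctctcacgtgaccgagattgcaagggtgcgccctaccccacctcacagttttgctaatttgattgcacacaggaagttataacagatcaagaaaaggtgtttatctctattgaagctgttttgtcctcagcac
Axin2: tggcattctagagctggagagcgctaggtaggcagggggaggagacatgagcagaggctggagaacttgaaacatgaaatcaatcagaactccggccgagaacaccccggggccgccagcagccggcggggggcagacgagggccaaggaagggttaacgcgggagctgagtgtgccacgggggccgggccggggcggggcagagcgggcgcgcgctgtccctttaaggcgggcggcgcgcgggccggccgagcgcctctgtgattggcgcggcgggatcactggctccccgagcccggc
Wnt11 upstream: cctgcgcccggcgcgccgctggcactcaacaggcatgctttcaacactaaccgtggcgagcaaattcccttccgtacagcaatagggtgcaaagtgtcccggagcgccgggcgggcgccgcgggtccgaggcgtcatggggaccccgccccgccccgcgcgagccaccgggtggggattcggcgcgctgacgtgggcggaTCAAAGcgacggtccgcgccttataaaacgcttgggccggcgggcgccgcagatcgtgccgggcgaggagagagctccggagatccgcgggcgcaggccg

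The internal Lef1 region held these letters 2 times, beginning 180 and 120 bases before the start site, both as TCAAAG. The upstream Wnt11 region held them once, 50 bases before the start, and the other Lef1 regions and the Axin2 region printed here did not hold these letters. RefSeq start regions were found for 8 of the 10 genes, 13 regions in all, and 3 of the 13 held these letters. The remaining one was that of Fzd1, 242 bases before its start. Over all 32851 RefSeq start regions of this length, 16.0% held these letters. A match describes these letters only, and no match says only that they are absent from this window.

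The first question was whether caffeine in early gestation altered the RNA levels of these genes. None of the 10 genes passed a false discovery rate (FDR) of 0.05 with edgeR's quasi-likelihood test, and none did with DESeq2 or limma-voom. Over all 13829 genes tested, 0.00723% passed. At an unadjusted p under 0.05, 1 of the 10 was higher (Wnt5a) and 0 lower, where 3.13% of all genes were higher and 2.07% lower, 5.2% in all. The log2 fold change, caffeine minus vehicle, was above 0 for 10 of 10, with a median of 0.20, against a median of 0.01 and 53% above 0 over all genes tested. For 6 of the 10 the sign turned when 1 library was left out (caffeine replicate 3 for Wnt2, Wnt11, Lef1, Tcf7 and Axin2, vehicle replicate 2 also for Wnt2, Wnt11 and Lef1, and vehicle replicate 1 for Fzd4). Every edgeR adjusted p among the 10 was between 0.941 and 0.999.

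**Figure D1:**
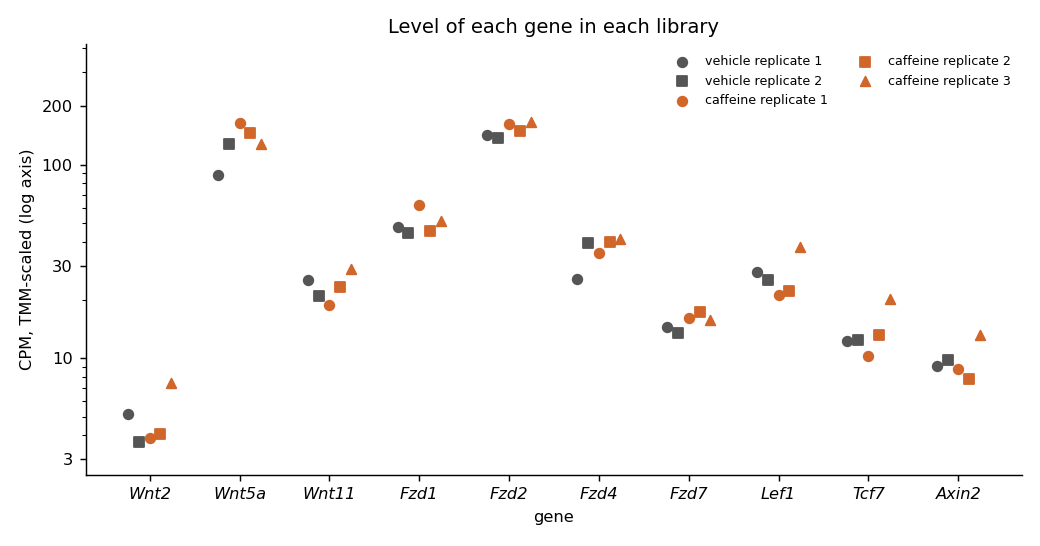
Level of each gene in each library, in CPM on a log axis; grey marks are the 2 vehicle libraries, orange marks the 3 caffeine libraries, 1 mark per library. Fzd2 and Fzd7 are the genes whose caffeine marks all lie above both vehicle marks, and caffeine replicate 3 (triangles) is the highest mark for 7 genes.

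**Figure D2:**
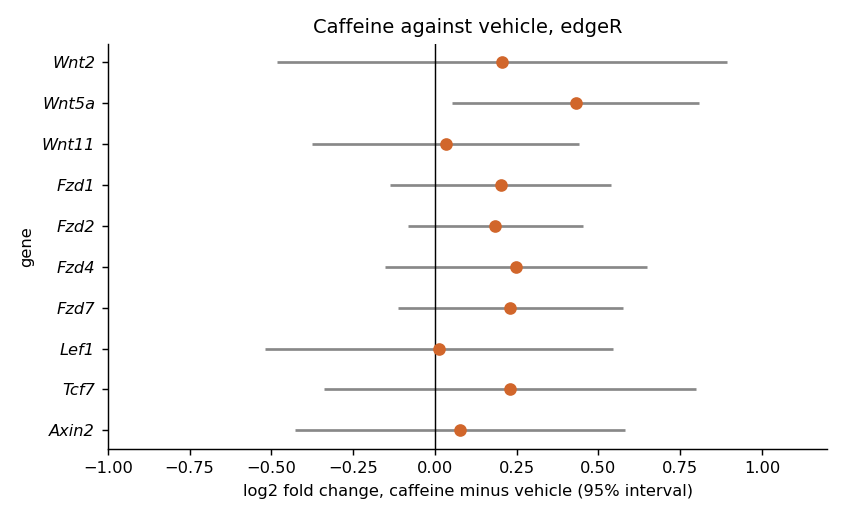
Log2 fold change of each gene, caffeine minus vehicle (points), with its unadjusted 95% interval from edgeR (lines). The interval of Wnt5a lies above 0 and the other 9 intervals include 0.

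Among the ligands, Wnt5a had by far the most RNA. The gene spans 28505473 to 28525515 of chromosome 14 in mm10, on the plus strand. It had 88.4 and 129 CPM in vehicle replicates 1 and 2 and 164, 146 and 128 CPM in caffeine replicates 1, 2 and 3. Vehicle replicate 1 stood low, while vehicle replicate 2 lay level with caffeine replicate 3, so the groups overlapped. The vehicle mean was 108 ± 28.4 CPM (SD, n = 2) and the caffeine mean 146 ± 17.7 CPM (SD, n = 3). Its log2 fold change was 0.43 (SE 0.17, 95% interval 0.05 to 0.81, edgeR adjusted p = 0.941; 0.0285 unadjusted), and 3.01% of all genes tested had a smaller p. The gap between the vehicle libraries, 0.54 on the log2 scale, was larger than this difference. Without vehicle replicate 1 the log2 fold change was 0.18, and without vehicle replicate 2 it was 0.70, with adjusted p values over all alternatives of at least 0.132.

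Wnt11, the other ligand of the non-canonical branch, lies on chromosome 7 from 98838845 to 98854747 (plus strand). It had 25.4 and 20.997 CPM in the vehicle pools and 18.9, 23.3 and 29.0 CPM in the caffeine pools. The caffeine libraries included both the lowest and the highest value, and the log2 fold change was 0.03 (SE 0.19, 95% interval -0.37 to 0.44). Wnt2, on the minus strand of chromosome 6 from 17988940 to 18030445, was the ligand with the fewest counts, 81 to 164 per library. It had 5.15 and 3.69 CPM in the vehicle pools and 3.86, 4.04 and 7.44 CPM in the caffeine pools. Caffeine replicate 3 alone was above vehicle replicate 1. The 164 counts of caffeine replicate 3 have an exact Poisson 95% interval of 140 to 191, which covers counting error only and does not meet those of caffeine replicates 1 and 2, 75.1 to 114 and 76.0 to 115. The log2 fold change of Wnt2 was 0.21 (SE 0.31), and its 95% interval, -0.48 to 0.89, was the widest of the 10.

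The receptors were led by Fzd2, a receptor gene with a single exon on chromosome 11 from 102604431 to 102608058 (plus strand). Fzd2 had 142 and 137 CPM in the vehicle pools and 163, 149 and 165 CPM in the caffeine pools. All caffeine libraries lay above both vehicle libraries, by a small margin. Means were 140 ± 3.50 CPM (SD, n = 2) and 159 ± 8.73 CPM (SD, n = 3), with a log2 fold change of 0.18 (SE 0.12, 95% interval -0.08 to 0.45, edgeR adjusted p = 0.999). Fzd7, a close relative of Fzd1 and Fzd2 on chromosome 1 from 59482147 to 59486955 (plus strand), had the same arrangement at a lower level. It had 14.4 and 13.6 CPM in the vehicle pools and 16.2, 17.3 and 15.8 CPM in the caffeine pools, and a log2 fold change of 0.23 (SE 0.16, 95% interval -0.11 to 0.57). So 2 of the 10 genes had all caffeine libraries above all vehicle libraries and 0 had them all below, where 11.2% and 9.27% of all genes tested did.

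Fzd1, on the minus strand of chromosome 5 from 4753839 to 4758216, had 47.4 and 44.5 CPM in the vehicle pools and 61.9, 45.6 and 51.0 CPM in the caffeine pools. Its caffeine replicate 1 was high and its caffeine replicate 2 lay between the vehicle libraries (log2 fold change 0.20, SE 0.16). Without caffeine replicate 1 its log2 fold change was 0.07. Fzd4, which also serves as the receptor of the non-Wnt ligand norrin in vessels, lies on chromosome 7 from 89404366 to 89410110 (plus strand). It had 25.6 and 39.6 CPM in the vehicle pools and 34.8, 39.8 and 41.5 CPM in the caffeine pools. As with Wnt5a, vehicle replicate 1 was the low library, and the log2 fold change of 0.25 (SE 0.18) became -0.035 without it and 0.57 without vehicle replicate 2. All 4 receptors thus had values above 0 with every library included, with a median of 0.22, and 0 of 4 passed.

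The nuclear factors and feedback genes had a wider range over the 3 caffeine libraries than the gap between the 2 vehicle libraries. This was also so for Wnt2, Wnt11, Fzd1, Fzd2 and Fzd7, and not for Wnt5a and Fzd4. A range over 3 libraries tends to be wider than a gap between 2. Lef1, which carries beta-catenin onto DNA and is itself raised by Wnt signalling in many tissues, lies on chromosome 3 from 131110297 to 131224357 (plus strand). It had 28.01 and 25.4 CPM in the vehicle pools and 21.1, 22.3 and 37.4 CPM in the caffeine pools. Caffeine replicates 1 and 2 were below both vehicle libraries and caffeine replicate 3 above them, so the log2 fold change was 0.01 (SE 0.24, 95% interval -0.52 to 0.54). Tcf7, which encodes the related factor TCF-1, lies on the minus strand of chromosome 11 from 52252604 to 52282571. It had 12.3 and 12.5 CPM in the vehicle pools and 10.2, 13.2 and 20.3 CPM in the caffeine pools (log2 fold change 0.23, SE 0.26). Its vehicle libraries differed by 0.02 on the log2 scale, while its caffeine libraries spanned 0.98. Axin2, a scaffold of the beta-catenin destruction complex that is widely read as a sign of canonical signalling, lies on chromosome 11 from 108920349 to 108950781 (plus strand). It had 9.10 and 9.79 CPM in the vehicle pools and 8.85, 7.82 and 13.3 CPM in the caffeine pools, again with caffeine replicate 3 highest (log2 fold change 0.08, SE 0.23, 95% interval -0.43 to 0.58).

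Over all 10 genes the unadjusted 95% intervals reached from -0.52 at the lowest bound, for Lef1, to 0.89 at the highest, for Wnt2. Written as folds, these bounds are 0.697 and 1.86, so none of the intervals from this fit included a doubling or a halving. They rest on 5 libraries and on the spread that edgeR shares across genes. For Lef1 and Axin2 the count may include RNA of another gene. In the GENCODE M21 annotation, exons of the antisense gene Gm43352 cover 1208 of the 3506 exonic bases of Lef1, and exons of Gm11670 cover 207 of the 4260 exonic bases of Axin2. Whether the authors' counting used strand is not given in the sources used here, and without strand the reads of such pairs cannot be told apart. Within the deposited spans, the exons that GENCODE gives the other 8 genes shared no base with another gene in that annotation. Exons of other genes wholly outside those spans were not searched, and GENCODE exons such as those of Wnt5a and Fzd4 run past them. For Wnt11 the deposited transcript ends at 98854747, past its GENCODE end at 98853751. That part was not checked, and the pseudogene Gm8398 on the minus strand lies within the deposited span.

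Caffeine replicate 3 was the highest of the 5 libraries for 7 of the 10 genes (Wnt2, Wnt11, Fzd2, Fzd4, Lef1, Tcf7 and Axin2) and the lowest for 0. It was the highest for 24.6% of all genes tested. On the log2 CPM scale its deviation from the mean of the 5 libraries was 0.66 for Wnt2, 0.60 for Tcf7, 0.51 for Lef1, 0.46 for Axin2 and 0.32 for Wnt11. Caffeine replicate 1 lay on the other side of the mean for these 5 genes, at -0.27, -0.38, -0.31, -0.12 and -0.30 in the same order. Without caffeine replicate 3 all 5 had log2 fold changes below 0: -0.16 for Wnt2, -0.09 for Tcf7, -0.30 for Lef1, -0.18 for Axin2 and -0.13 for Wnt11. Wnt5a and the 4 receptors kept values above 0 in that fit. Leaving out vehicle replicate 2 also gave values below 0 for 3 of the 5, at -0.038 for Wnt2, -0.12 for Wnt11 and -0.084 for Lef1.

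**Figure D3:**
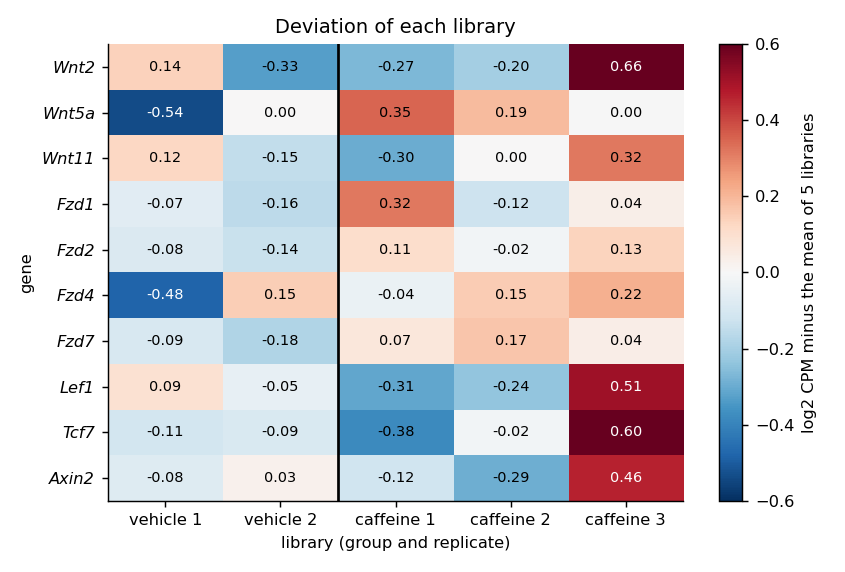
Log2 CPM of each gene in each library minus the gene's mean over the 5 libraries; red is above and blue below that mean, and the black line separates vehicle from caffeine libraries. Wnt2, Lef1, Tcf7 and Axin2 stand at 0.46 to 0.66 in caffeine replicate 3, and Wnt5a and Fzd4 at -0.54 and -0.48 in vehicle replicate 1.

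The same library was compared with the cell type markers. By summed CPM, caffeine replicate 3 was the highest library for 0 of the 8 marker lists. The embryonic erythroid sum was 10711 and 6166 CPM in vehicle replicates 1 and 2. In caffeine replicates 1, 2 and 3 that sum was 8461, 6493 and 10237 CPM. By single genes it was the highest for 5 of 8 embryonic erythroid markers, 3 of 7 tested atrial and sinus venosus markers, 3 of 8 cushion mesenchyme markers, 2 of 5 tested outflow and second heart field markers, 1 of 8 cardiomyocyte markers, 1 of 8 endocardial markers, 0 of 8 epicardial markers and 0 of 5 tested hepatic markers. Between the groups, the summed cardiomyocyte markers given above did not overlap and were lower with caffeine. By single genes, 4 of the 8 had all caffeine libraries below both vehicle libraries, where 9.27% of all genes tested did. Tnnt2, Actc1, Myl3 and Nkx2-5 overlapped, and Nkx2-5 had a log2 fold change above 0 (0.13). The summed cushion mesenchyme markers were 627 and 767 CPM in vehicle replicates 1 and 2 and 777 to 797 CPM in caffeine. Most of that sum was the single gene Tbx20, which had 404 and 558 CPM in the vehicle pools and 557, 576 and 551 CPM in the caffeine pools, so that its groups overlapped. No single marker passed FDR 0.05 in any of the 8 lists. At an unadjusted p under 0.05 with edgeR, 1 of 8 cardiomyocyte markers was lower with caffeine (Ttn, log2 fold change -0.72, SE 0.18). Higher were 1 of 7 tested atrial markers (Shox2, 1.35, SE 0.57) and 1 of 8 erythroid markers (Epb4.2, 0.58, SE 0.23). Over all genes tested, 2.07% were lower and 3.13% higher at this threshold, 5.2% in all. The part of cell composition in these values or in those of caffeine replicate 3 was not tested. Of the 70 other Wnt pathway genes tested, listed by role further on, caffeine replicate 3 was the highest library for 22, against 24.6% of all genes tested. It was highest for 0 of 6 further ligands, 0 of 6 further frizzleds and 0 of 6 R-spondins and their receptors. The destruction complex and relay had 5 of 10, the other nuclear factors 5 of 9 and the other Wnt target genes 5 of 7. Each remaining list had 1 or 2. Among the 5 target genes was Nkd1, an inhibitor that binds dishevelled proteins, named here after its values were seen. Nkd1 had 20.7 and 17.9 CPM in the vehicle pools and 24.3, 16.6 and 24.8 CPM in the caffeine pools.

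To compare levels between genes, CPM was divided by the exonic length in kilobases. On this scale Fzd2 was highest, at 38.4 ± 1.03 in vehicle (SD, n = 2) and 43.8 ± 2.49 in caffeine (SD, n = 3). Wnt5a followed at 26.1 ± 6.32 and 34.2 ± 4.31, and the ranges of these genes over the 5 libraries overlapped. A step separated Wnt5a from Fzd1, at 10.5 ± 0.473 CPM per kilobase in vehicle, with no overlap of libraries. Fzd1, Fzd4 (8.82 ± 2.65), Wnt11 (8.29 ± 1.12), Lef1 (7.80 ± 0.639) and Tcf7 (5.52 ± 0.0421) formed a run in which each gene's libraries overlapped those of the next. A further step led down to Fzd7 (2.90 ± 0.129), Axin2 (2.21 ± 0.110) and Wnt2 (2.08 ± 0.490), neighbours whose libraries overlapped. The order by caffeine means was the same apart from Wnt2 and Axin2, which changed places.

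Of the 10 genes, 8 have 1 transcript in the RefSeq transcript table, Wnt5a has 2 and Lef1 has 3. No transcript of any gene passed FDR 0.05 with edgeR (0% of 18418 tested; 7.36% had an unadjusted p under 0.05). The Wnt5a transcripts differ in their start: NM_009524 begins at 28505473 and NM_001256224 at 28511405. NM_009524 took 60.4% and 77.0% of the Wnt5a counts in vehicle and 86.8%, 81.5% and 93.8% in caffeine. NM_001256224 took the rest, so its share was higher in both vehicle libraries than in any caffeine library, with vehicle replicate 1 and caffeine replicate 3 at the extremes. In CPM, NM_009524 had 53.2 and 98.6 in vehicle and 142, 119 and 120 in caffeine (log2 fold change 0.74, SE 0.25, edgeR adjusted p = 0.554). NM_001256224 had 34.9 and 29.4 CPM in the vehicle pools and 21.5, 27.1 and 7.95 CPM in the caffeine pools (log2 fold change -0.77, SE 0.42, adjusted p = 0.794). Neither transcript's groups overlapped, which was so for 12.2% of all transcripts in the higher and 11% in the lower direction.

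Transcript usage, a test of whether the transcripts of a gene shift against each other, did not pass for Wnt5a (edgeR adjusted p = 0.146, 0.0137 unadjusted). Over 2897 genes, 3.07% passed and 17.7% had an unadjusted p under 0.05. The size of the Wnt5a shift varied with the library left out, and differently for its transcripts. Omitting vehicle replicate 1 gave NM_009524 a log2 fold change of 0.37, and omitting vehicle replicate 2 gave it 1.23. NM_001256224 had -0.64 and -0.92 in those fits. With caffeine replicate 3 dropped instead, NM_001256224 shrank to -0.41 while NM_009524 stayed at 0.78. The Ensembl table divides the gene in another way. There the most abundant transcript, Wnt5a-001, took 54.0% and 53.7% of the gene's counts in vehicle and 54.0%, 51.7% and 53.3% in caffeine, and Wnt5a-002 took 45.5% and 45.7% in the vehicle pools and 43.6%, 47.4% and 42.8% in the caffeine pools. A rare transcript, Wnt5a-004, took 0.104% and 0.224% in the vehicle pools and 1.39%, 0.763% and 2.83% in the caffeine pools. It was higher in every caffeine library (log2 fold change 3.46, SE 0.78, edgeR adjusted p = 0.260, 0.00366 unadjusted). That change rests on few reads, with only 2.73 and 7.52 estimated counts under vehicle against 64.8, 30.4 and 94.6 under caffeine. The other rare transcript tested, Wnt5a-003, overlapped between groups. No share of all Ensembl transcripts with such a difference is given for comparison. Usage of Wnt5a did not pass in that table either (adjusted p = 0.110, 0.0134 unadjusted; 6.94% of the 7540 genes tested there passed). Usage of Fzd7, Axin2, Tcf7, Wnt2 and Wnt11 did not pass there, with adjusted p values of 0.270 to 0.845. Fzd7-001 held 49.4% and 68.8% of its gene's counts with vehicle, below the 79.7%, 71.8% and 97.8% with caffeine (usage of Fzd7, adjusted p = 0.270). The level of Fzd7-001 had a log2 fold change of 0.69 (SE 0.23, edgeR adjusted p = 0.366). Axin2-003 held 31.4% and 14.9% with vehicle, above its 11.9%, 10.1% and 8.92% with caffeine (usage of Axin2, adjusted p = 0.621). The level of Axin2-003 had a log2 fold change of -1.14 (SE 0.47, edgeR adjusted p = 0.464). For these shares too, no value over all Ensembl transcripts is given. Shares of Tcf7, Wnt2 and Wnt11 transcripts overlapped between groups.

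The Lef1 transcript from the next start region printed above, NM_001276403, was the smallest of its 3. It took 9.87% and 8.22% of the Lef1 counts in vehicle and 6.18%, 1.91% and 1.40% in caffeine, below both vehicle libraries in all 3 caffeine libraries. In CPM it had 2.75 and 2.09 in vehicle and 1.29, 0.428 and 0.545 in caffeine (log2 fold change -1.67, SE 0.53, 95% interval -2.90 to -0.45, edgeR adjusted p = 0.519). The transcripts from the upstream region overlapped between groups. NM_010703 took 27.9% and 46.9% of the counts in vehicle and 44.2%, 57.2% and 52.9% in caffeine, and NM_001276402 took 62.2% and 44.9% in the vehicle pools and 49.6%, 40.9% and 45.7% in the caffeine pools. Usage of Lef1 did not pass (adjusted p = 0.275, 0.0486 unadjusted). The Ensembl transcript Lef1-002 also had a low share, 7.81% and 6.73% in the vehicle pools and 3.13%, 0.911% and 0.432% in the caffeine pools, and usage of Lef1 did not pass there (adjusted p = 0.180). Shares of overlapping transcripts depend on how the authors' counting assigned shared reads, an error these tests do not include.

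**Figure D4:**
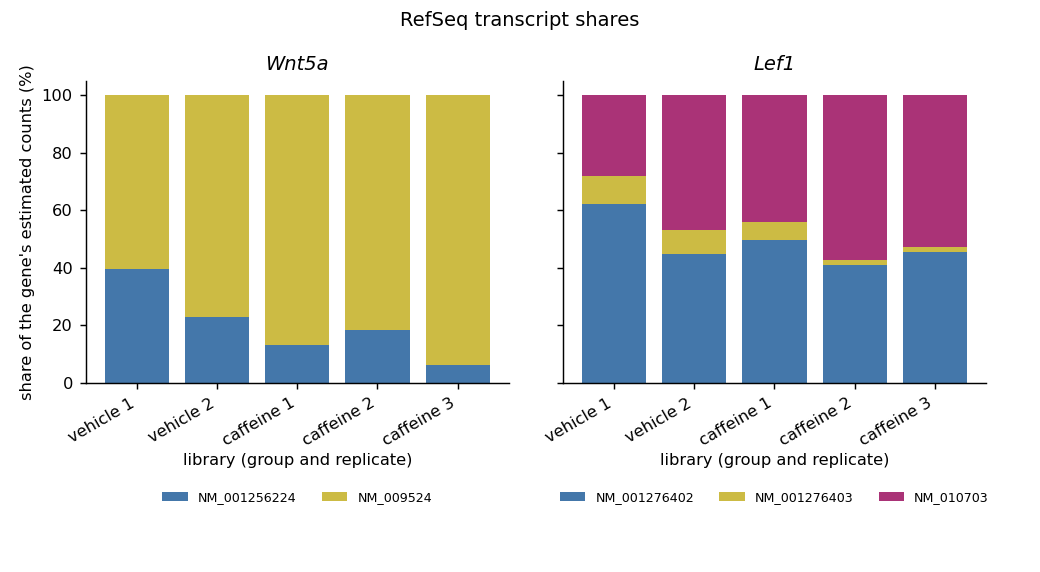
Share of each gene's estimated counts, in percent, taken by each RefSeq transcript of Wnt5a (left) and Lef1 (right), 1 stacked bar per library. NM_001256224 of Wnt5a runs from 39.6% in vehicle replicate 1 to 6.21% in caffeine replicate 3, and NM_001276403 of Lef1 from 9.87% to 1.40%.

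The rest of the pathway was taken from lists arranged by role, 89 genes in all, of which 83 were in the RefSeq gene table and 70 had enough counts to be tested. None of the 70 passed FDR 0.05 with edgeR, DESeq2 or limma-voom. With edgeR, 3 had an unadjusted p under 0.05 with a higher value in caffeine and 0 with a lower one, where 3.13% and 2.07% of all genes did. Of the 70, 45 had log2 fold changes above 0 and 25 below (median 0.06), against 53% above 0 over all genes. All caffeine libraries lay above both vehicle libraries for 11 of the 70 and below both for 4. Over all genes tested these shares were 11.2% and 9.27%. The 3 genes with an unadjusted p under 0.05 were Dvl1, Dvl3 and Vangl2. The dishevelled proteins relay the signal from frizzleds to both branches of the pathway. Dvl1 had 19.7 and 17.9 CPM in the vehicle pools and 25.9, 28.9 and 36.6 CPM in the caffeine pools, with no overlap between groups. Its log2 fold change was 0.69 (SE 0.17, 95% interval 0.32 to 1.07, edgeR adjusted p = 0.517; 0.00163 unadjusted), between 0.54 and 0.80 when each library was left out. Dvl3 had 60.2 and 77.9 CPM in the vehicle pools and 91.8, 78.0 and 97.6 CPM in the caffeine pools (log2 fold change 0.37, SE 0.16; 0.19 without vehicle replicate 1). Dvl2, the remaining dishevelled gene, had 35.4 and 34.7 CPM in the vehicle pools and 40.4, 36.4 and 42.9 CPM in the caffeine pools (log2 fold change 0.19, SE 0.14). Vangl2, a membrane protein of planar cell polarity, had 19.3 and 19.9 CPM in the vehicle pools and 24.96, 22.8 and 26.96 CPM in the caffeine pools (log2 fold change 0.34, SE 0.15; 0.13 with the Ensembl counts). The list of the destruction complex and relay, which holds the dishevelled genes, had 7 of 10 values above 0 (median 0.08), and the polarity list had 2 of 9 above 0 (median -0.05).

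In the other lists no gene had an unadjusted p under 0.05, and the gene with the highest mean CPM of each is given. Of 6 tested further ligands, 5 had log2 fold changes above 0, and Wnt4 had -0.27 (SE 0.19; -0.15 without vehicle replicate 1 and -0.47 without caffeine replicate 3). Of 6 further frizzleds 4 were above 0, with Fzd3 at -0.12 (SE 0.19; 0.23 without vehicle replicate 2). Wls, which carries Wnt proteins to the cell surface, had -0.14 (SE 0.13; -0.065 without caffeine replicate 3). The co-receptors and receptor kinases had a median of 0.04 over 6 genes, with the kinase-like receptor Ptk7 at 0.0026 (SE 0.12). The R-spondins and their receptors had a median of 0.22 over 6 genes, with the receptor Lgr4 at -0.01 (SE 0.14). The secreted inhibitors had a median of 0.10 over 9 genes, with the dickkopf family member Dkk3 at -0.11 (SE 0.12). The nuclear factors had a median of 0.05 over 9 genes, with Bcl9, a partner of beta-catenin, at 0.06 (SE 0.14), and the other target genes a median of 0.07 over 7 genes, with the cyclin Ccnd1 at -0.04 (SE 0.13). The gene of beta-catenin itself, Ctnnb1, had 1075 and 1089 CPM in the vehicle pools and 1049, 1047 and 949 CPM in the caffeine pools with no overlap between groups (log2 fold change -0.09, SE 0.12). Such an arrangement, with all caffeine libraries below, held for 4 of the 70 genes and for 9.27% of all genes tested.

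**Figure D5:**
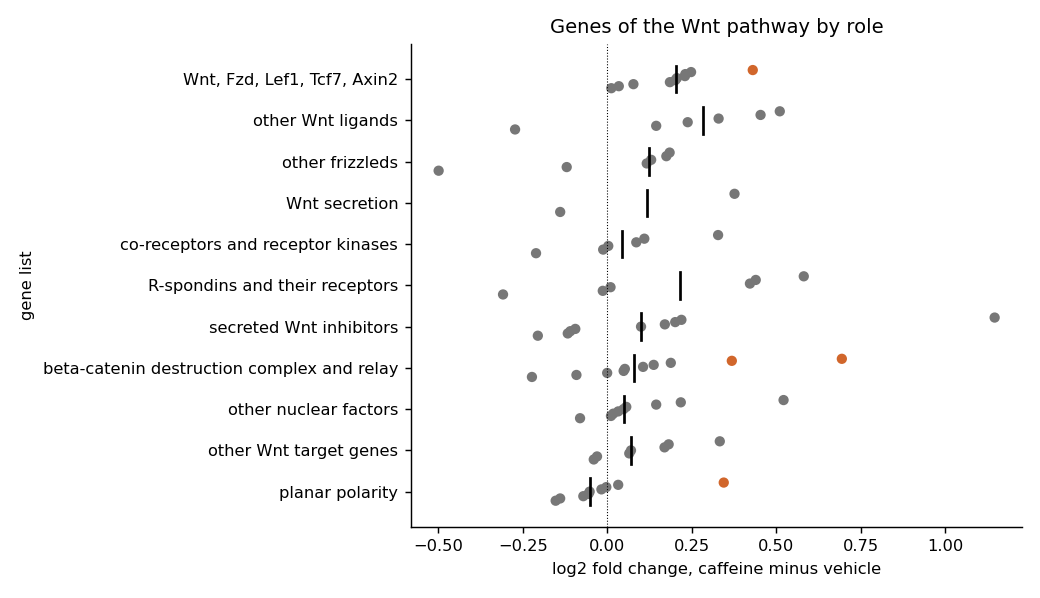
Log2 fold change, caffeine minus vehicle, of every tested gene of the pathway by role (points), with the median of each list (black bars); orange points have an unadjusted p under 0.05. The orange points are Wnt5a in the top row, Dvl1 and Dvl3 in the destruction complex and relay, and Vangl2 in planar polarity.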

How the data were processed

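RNA of 5 libraries was analysed. The authors deposited estimated counts, often fractional, per gene and per transcript on RefSeq (2013) and on Ensembl release 71, per the file headers. TopHat, Partek, mm10 and GRCm38 are named in the submitters' processing notes, with no versions. The counts are not scaled between libraries.

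Counts were rounded, filtered with filterByExpr, scaled by TMM (factors 0.970 to 1.02) and tested with edgeR 4.0.16 in R 4.3.3 (quasi-likelihood, robust, two-sided). P-values were adjusted by Benjamini-Hochberg over every feature tested. Limma 3.58.1 and DESeq2 1.42.0 were alternatives. The SE is the absolute log2 fold change divided by the root of F. Usage was tested with diffSpliceDGE. Ends are the deposited stop minus 1. Exonic lengths came from GENCODE M21 transcripts set to the deposited ends. Start regions are RefSeq's.

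The labels give no batch. P-values measure the spread between these pools. The 10 genes, the lists and the tests were chosen with earlier results of these data known. All 10 genes are named. Of each pathway list, genes with an unadjusted p under 0.05 are named, otherwise the one with the highest mean CPM. Dvl2, Ctnnb1 and Nkd1 were added after their values were seen.

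The steps were tested on simulated counts, drawn with the spread that edgeR fits to genes of like abundance. The simulation held no outlying library and no error in assigning reads to transcripts, and no change below 1 was simulated. Its shares describe these settings and not the real libraries. Among 13717 genes, 72.4% of those changed by 1 on the log2 scale were recovered at FDR 0.05 and 97.0% of those changed by 2. Among 2840 genes tested for usage these shares were 34.7% and 77.6%.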

Additional observations from a re-analysis of the deposited data

How the results depend on the processing

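In every alternative run, 0 of the 10 Wnt genes and 0 of the other pathway genes passed FDR 0.05. The count over all genes, 1 in the fit reported, was 6 with no low-count filter, 18 with DESeq2, 2 with the Ensembl gene table and 0 to 18 when each library was left out. Wnt5a, Fzd1, Fzd2, Fzd7, Dvl1, Dvl3 and Vangl2 had log2 fold changes above 0 and Wnt4, Wls and Dkk3 below 0 in all 15 alternatives. Wnt2 had a value in 14, since the filter of 5 CPM removed it. Lef1 had -0.040 with limma-voom, Ptk7 -0.0080 with RLE scaling and with DESeq2, Lgr4 0.046 and Ccnd1 0.020 with no scaling, and Fzd3 0.21 with the Ensembl gene table.

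Replicate numbers 1 and 2 occur in both groups, but the labels tie them to no shared dam or day. Deviations of same-numbered libraries from their group means correlated at -0.02 and 0.13 across genes. With 2 vehicle libraries the vehicle deviations mirror each other. The 2 correlations are therefore not separate checks, and they cannot decide whether same-numbered libraries share an effect. With the replicate number as a block, 52 genes passed, 0 of them among the 10, and 3 genes passed for usage. This block leaves caffeine replicate 3 without a partner. Under it Wnt2 had -0.15, Wnt11 -0.14, Lef1 -0.30, Tcf7 -0.10, Axin2 -0.18, Ptk7 -0.022 and Lgr4 0.073.

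With each library left out, log2 fold changes ran from -0.16 to 0.47 for Wnt2, from -0.13 to 0.18 for Wnt11, from -0.035 to 0.57 for Fzd4, from -0.30 to 0.16 for Lef1, from -0.086 to 0.43 for Tcf7, from -0.18 to 0.23 for Axin2, from -0.42 to 0.23 for Fzd3, from -0.033 to 0.060 for Ptk7, from -0.17 to 0.14 for Lgr4, from -0.083 to 0.18 for Bcl9 and from -0.11 to 0.028 for Ccnd1. NM_001276402 of Lef1 ran from -0.55 to 0.11. The causes were not tested.

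Alternatives for transcript usage were chosen after seeing the data. The count of genes past FDR 0.05 for usage, 89, was 523 with the Ensembl transcript table and 15 to 53 with each library left out. Usage of Wnt5a and Lef1 did not pass in any of them, with adjusted p values of 0.110 to 0.558 and 0.179 to 0.751. The filter of 5 CPM, the scalings and the other tools were not run for usage.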
